A study of Mus musculus with 13 samples.

Results

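Stab1, Stab2, Lyve1, Cd36, Scarb1, Scarf1, Clec14a and Cd93 encode receptors on the endothelial surface that bind hyaluronan, lipoproteins, fatty acids or matrix proteins. These 8 genes were taken by symbol from 25715 genes listed in either of 2 sets of mouse RNA-Seq libraries, and each was listed in both. They were chosen by a sprout readout, the fold change of Stab1, which was among the strongest decreases of the libraries labelled STOP. The STOP and GO values are therefore given as a description with no test. The rule did not use the tumor libraries, although the genes were chosen with earlier results of these data known. All 8 genes were among the 13073 tested in the tumor set of 24984 listed genes. In the sprout set 7 of the 8 were among the 14557 tested of 24421 listed, and Cd36 fell under the filter on low counts.

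The tumor endothelial cells (ECs) came from E0771 tumors, a mouse mammary carcinoma line grown in the mammary fat pad of C57BL6/J mice and harvested at day 25. In the Apelin-depleted group (n = 3 libraries) the tumor cells carried shApln and the hosts were Apln-/-, and in the Apelin wild-type group (n = 6) the tumor cells carried the shRenilla control and the hosts were wild-type. Host and tumor cells thus lost Apelin together, and a host effect cannot be told apart from one of the tumor cells. Each library was made by Smart-Seq2 from 100 sorted CD45-, CD31+, CD105+ cells. The sprout cells were sorted on CD31 alone from embryoid bodies (EBs) that sprouted in collagen I gel. The EBs grew from C57BL/6x129 stem cells of 1 gene-trap line, and all received 30 ng/mL VEGFA164. STOP libraries (n = 2) carry the trap in the sense orientation that interrupts Apln and received DMSO, and GO libraries (n = 2) carry it inverted by Cre and received 1000 nM Apelin Pyr13. By the study's methods Cre was brought in by a retrovirus that also encodes mCherry. Trap orientation, infection with this retrovirus, Cre, the fluorescent tag and the added peptide therefore changed together and cannot be told apart. Which libraries received DMSO or the peptide is taken from the study's legends, since the labels give the trap orientation alone. The labels do not say that libraries of a group came from separate animals or cultures, so the p-values measure the spread between libraries, which may be technical. A legend of the study gives tumors in the same numbers as the tumor libraries, without saying that each library came from its own tumor.

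Stabilins are large scavenger receptors of sinusoidal vessels. STAB2 clears hyaluronan from blood in the liver, and STAB1 takes up modified lipoproteins and SPARC and is also made by alternatively activated macrophages. LYVE1 is a hyaluronan receptor of lymphatic vessels, of liver sinusoids and of some macrophages. CD36 and SCARB1 are class B scavenger receptors for fatty acids, thrombospondin and high-density lipoprotein, and SCARF1 takes up acetylated low-density lipoprotein. CLEC14A and CD93 are C-type lectins of group 14, a family that also holds thrombomodulin (Thbd) and endosialin (Cd248). Both are enriched in tumor vessels and bind the matrix protein multimerin 2 (Mmrn2).

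In the GRCm38.p6 annotation the genes lie on 7 chromosomes. Stab1 spans chr14:31139017-31168651, Stab2 chr10:86841194-87008038, Lyve1 chr7:110850607-110862953 and Cd36 chr5:17781690-17888959. Scarb1 spans chr5:125277087-125341094, Scarf1 chr11:75513489-75526582, Clec14a chr12:58264720-58269258 and Cd93 chr2:148436651-148443535. In the GENCODE annotation of this build, the exons of Stab1 share 112 bases (1.09%) with exons of the opposite strand gene Nt5dc2. Those of Stab2 share 141 bases (1.61%) with exons of the antisense gene Gm16268. No exon of the other 6 overlaps an exon of another gene.

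RefSeq promoter entries on GRCm38.p6 were found for 4 of the 8 genes, Stab1, Stab2, Cd36 and Clec14a. The 250 bases before the start used by the entry are shown for the 2 stabilins, which are related genes, and for Clec14a. These 3 were picked with the sprout values known, and no sprout difference is read from the sequences. All 3 genes lie on the minus strand, and the sequences read 5′ to 3′ along the gene from chr14:31168642-31168891, chr10:87007943-87008192 and chr12:58269259-58269508. Capitals mark matches to an ETS core, AGGAAG or CGGAAG on either strand, since ETS factors act in endothelial promoters.
Stab1: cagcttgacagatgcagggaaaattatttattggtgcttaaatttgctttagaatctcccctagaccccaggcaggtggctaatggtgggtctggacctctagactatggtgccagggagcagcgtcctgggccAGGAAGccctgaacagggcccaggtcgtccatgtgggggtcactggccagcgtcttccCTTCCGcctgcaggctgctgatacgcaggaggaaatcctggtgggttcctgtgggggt
Stab2: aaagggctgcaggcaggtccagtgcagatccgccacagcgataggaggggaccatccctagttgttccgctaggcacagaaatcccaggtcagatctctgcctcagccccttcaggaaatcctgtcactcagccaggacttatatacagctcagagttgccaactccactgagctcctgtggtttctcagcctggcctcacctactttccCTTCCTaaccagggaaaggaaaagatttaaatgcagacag
Clec14a: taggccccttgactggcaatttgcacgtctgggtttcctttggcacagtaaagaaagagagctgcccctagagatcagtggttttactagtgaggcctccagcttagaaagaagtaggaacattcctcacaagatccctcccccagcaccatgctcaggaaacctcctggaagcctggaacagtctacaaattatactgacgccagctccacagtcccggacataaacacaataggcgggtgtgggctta
The Stab1 window holds 2 such matches, starting 116 and 58 bases before the entry's start. The Stab2 window holds 1 that starts 40 bases before it. For both stabilins the entry's start lies inside the gene span given above, so part of each window overlaps that span. The Stab2 match lies in the overlapping part, and the Stab1 matches lie outside it. Neither the Clec14a nor the Cd36 window has one. The Cd36 window, chr5:17835897-17836146, lies wholly inside the Cd36 span given above, so it describes the sequence before an internal start only. The letters occur in 39.2% of 32851 mouse windows of this length, so a match describes the sequence and says nothing of binding. A SOX core, ACAATG or ACAATA on either strand, was found once in the Clec14a window, once in the Cd36 window and in 17.4% of all windows. The letters AGATAA, searched for GATA factors, and TATAAA were in none of the 4 windows and in 9.99% and 12.4% of all.

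Total counts were 4661044 to 14455093 per tumor library and 12327030 to 16804071 per sprout library, at which 3 counts, the most that a count of 0 allows, correspond to 0.211 to 0.596 CPM and 0.177 to 0.244 CPM (counts scaled to library size, TMM-normalized). These limits cover counting error only. Apln, the targeted gene, measured 2.44 to 12.1 CPM in the 3 Apelin-depleted libraries and 416 to 1033 CPM in the 6 wild-type libraries, a 104-fold difference (edgeR adjusted p = 6.13e-05). In the libraries labelled STOP it measured 66.1 and 80.2 CPM against 58.2 and 65.9 CPM in GO, so the counts do not show a loss of Apln under the STOP label. Where along Apln these reads lie was not tested. The sorting markers Pecam1 (CD31) and Eng (CD105) were detected in every library. In bulk RNA, fewer cells of a type cannot be told apart from less of an RNA in each cell.

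In tumor ECs, Stab1 was the 1 gene of the 8 whose Apelin-depleted libraries all lay above all Apelin wild-type libraries. It measured 604, 816 and 611 CPM in Apelin-depleted replicates 1 to 3. In the 6 wild-type libraries it ranged from 189 to 531 CPM with a median of 354. The means were 677 ± 120 CPM (SD, n = 3) and 351 ± 123 CPM (SD, n = 6), a 1.93-fold difference. The log2 fold change was 0.95 ± 0.31 (SE, 95% interval 0.30 to 1.60), which did not pass the test over all genes (edgeR quasi-likelihood test, adjusted p = 0.909). Of all tested genes 1.06% had depleted libraries that all lay above the wild-type ones. Pan-endothelial genes were also somewhat higher in the depleted libraries, with a median log2 fold change of 0.35 over 17 such genes, none of them called. Set against the mean of these 17 genes in each library, the Stab1 difference was 0.65 log2 units and the groups overlapped, from -0.34 to 0.29 in depleted and from -1.65 to -0.23 in wild-type libraries. In depleted replicates 1 to 3, 6 lymphatic genes summed to 537, 1726 and 160 CPM, against 84.8 to 1079 CPM in wild-type libraries. A list of 15 macrophage genes summed to 1266, 56.1 and 114 CPM, against 87.8 to 708 CPM. The part of endothelial, lymphatic or macrophage genes in the Stab1 difference was not tested.

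Stab2 was at 6.12 CPM or less in 8 of the 9 tumor libraries and high in 1. The counts were 36, 7 and 3 in the depleted libraries, or 6.12, 0.492 and 0.366 CPM. The wild-type libraries gave 2.56, 1.66, 213, 3.57, 0 and 0.424 CPM in replicates 1 to 6, and the 0 in replicate 5 allows up to 0.521 CPM. The groups overlapped. The log2 fold change of -4.04 ± 2.77 (SE) turned to 0.49 when wild-type replicate 3 was left out, and neither value was called (edgeR adjusted p = 1.00 in both). That library also held the highest level of the sinusoidal genes F8 (coagulation factor VIII) at 271 CPM, Maf at 235 CPM and Mrc1, the mannose receptor, at 125 CPM. The other libraries reached at most 10.6 CPM for F8, 24.9 for Maf and 16.8 for Mrc1. The summed level of the 10 genes of the sinusoidal list was 688 CPM in it, against 11.0 to 68.4 CPM in the other 8 libraries. Of the 10 genes 5 were highest there, these 3 with Gata4 (19.1 CPM) and Fcna (2.46 CPM). Dnase1l3 was highest in depleted replicate 2 (32.8 against 24.7 CPM), Fcgr2b in depleted replicate 1 (12.4 against 8.35 CPM) and Oit3 in wild-type replicate 1 (6.94 against 2.46 CPM). Clec4g and Clec1b, lectins that mark liver sinusoids, had no count in wild-type replicate 3. The part of these genes in the Stab2 level was not tested.

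Lyve1 ranged from 0.684 to 1712 CPM over the 9 tumor libraries, which came from 7 to 17429 counts. It measured 632, 1081 and 93.6 CPM in the depleted libraries. In the wild-type libraries it measured 90.1, 0.684, 1712, 12.1, 15.5 and 9.05 CPM in replicates 1 to 6. The groups overlapped because wild-type replicate 3 held the highest level of all, although the other 5 wild-type libraries lay below each depleted library. The log2 fold change was 0.97 ± 2.09 (SE, 95% interval -3.92 to 5.87, edgeR adjusted p = 1.00), and it was 4.58 without wild-type replicate 3 and 0.22 without depleted replicate 2, not called in either case.

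The 3 libraries with the most Lyve1 were also those with the most of the lymphatic genes Prox1, the transcription factor that specifies lymphatic ECs, and Mmrn1. Prox1 measured 28.5, 175 and 66.7 CPM in depleted replicates 1 and 2 and wild-type replicate 3, and 15.1 CPM or less in the others. Mmrn1 measured 140, 703 and 456 CPM in these and 28.5 CPM or less in the rest. The most abundant lymphatic gene by its mean in the wild-type group, Flt4 (VEGFR3), measured 286, 433 and 309 CPM there and 78.7 to 140 CPM elsewhere. Reln measured 15.8, 96.5 and 69.9 CPM there and 4.34 CPM or less elsewhere. Pdpn did not single out the same libraries, at 66.8, 318 and 177 CPM there but 122 CPM in wild-type replicate 2. Of the 6 lymphatic genes 5 were detected, all 5 with a fold change above 0 and none called, and Ccl21a had no count in any tumor library. Their summed level was 160 to 1726 CPM in the depleted and 84.8 to 1079 CPM in the wild-type libraries. The macrophage list, which includes Mrc1, was highest in depleted replicate 1 (1266 CPM) and wild-type replicate 4 (708 CPM), where Lyve1 was 632 and 12.1 CPM. The part of lymphatic or other cells in the Lyve1 level was not tested.

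**Figure D1:**
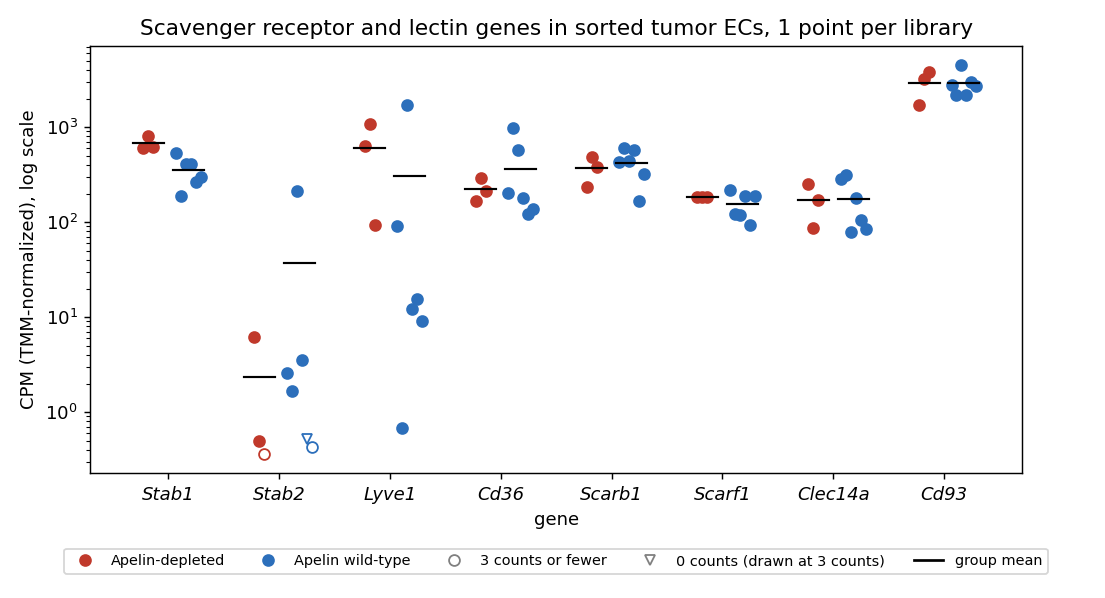
CPM of the 8 genes in tumor ECs on a log scale, with 1 point per library (red, Apelin-depleted, n = 3; blue, Apelin wild-type, n = 6) and a bar at each group mean. The Stab1 points of the groups do not overlap (604 to 816 against 189 to 531 CPM), and Stab2 and Lyve1 spread over more than any of the other 6 genes.

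**Figure D2:**
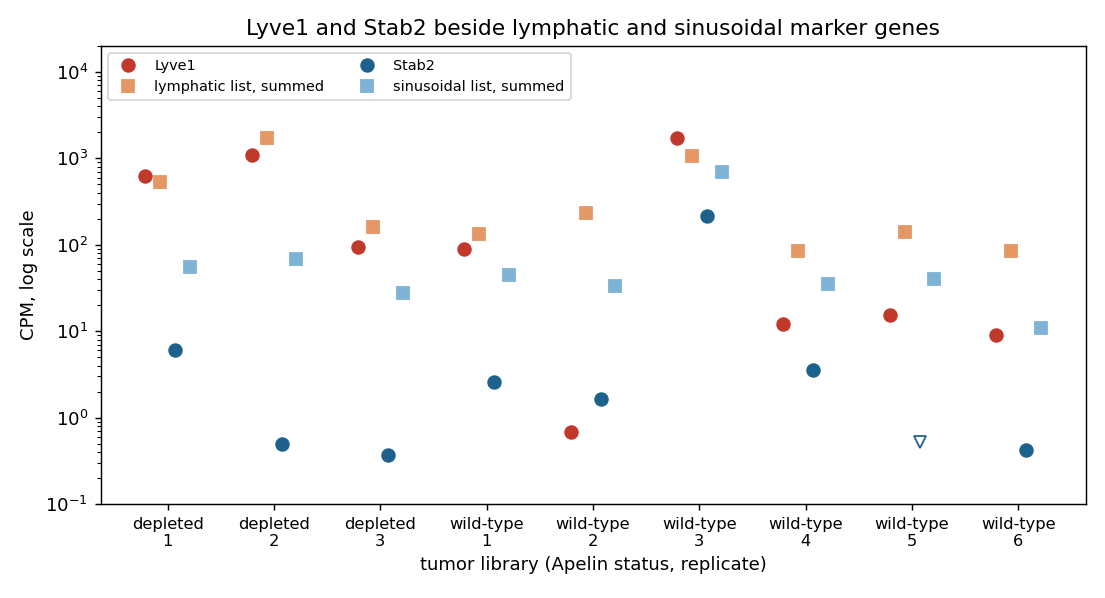
CPM on a log scale of Lyve1 and Stab2 (circles) and the summed CPM of 6 lymphatic and 10 sinusoidal marker genes (squares) in each of the 9 tumor libraries; the open triangle is a count of 0 drawn at the level of 3 counts. Lyve1 and the lymphatic genes are high in depleted replicates 1 and 2 and wild-type replicate 3, and Stab2 and the sinusoidal genes are high in wild-type replicate 3.

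Cd36, the fatty acid receptor of capillaries, measured 165, 291 and 214 CPM in the depleted libraries. The wild-type libraries gave 203, 977, 577, 177, 121 and 139 CPM in replicates 1 to 6. Wild-type replicates 2 and 3 were the 2 high libraries, and the other 4 lay within or below the range of the depleted group. The log2 fold change was -0.71 ± 0.65 (SE, edgeR adjusted p = 1.00). It was -0.12 with wild-type replicate 2 alone left out and became 0.48 with both of these libraries left out. Wild-type replicate 2 also held 2097 CPM of Dcn, the fibroblast proteoglycan decorin, against 0.141 to 159 CPM in the other libraries. The 9 genes of the mural and fibroblast list summed to 4142 CPM in it and to 54.7 to 295 CPM in the others. Adipocytes and platelets also make Cd36, and their marker lists summed to 1.27 to 20.1 CPM and 3.82 to 78.2 CPM over the tumor libraries, with Adipoq at 1.99 CPM or less. The platelet list was highest in wild-type replicate 3 (78.2 CPM, against 42.6 CPM or less in the others). The part of fibroblasts or platelets in the Cd36 level was not tested.

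Scarb1, the receptor for high-density lipoprotein, measured 236, 482 and 384 CPM in the depleted libraries and 167 to 596 CPM, with a median of 432, in the wild-type ones. The depleted libraries lay within the range of the wild-type ones, with a log2 fold change of -0.20 ± 0.37 (SE, 95% interval -0.97 to 0.58, edgeR adjusted p = 1.00). Scarf1 was the steadiest gene in the depleted group, at 184, 186 and 182 CPM. Its wild-type libraries ranged from 92.6 to 220 CPM with a median of 156, on both sides of the depleted values. The log2 fold change was 0.24 ± 0.31 (SE, 95% interval -0.42 to 0.90, edgeR adjusted p = 1.00). For neither gene did the interval reach a 2-fold change in either direction.

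The group 14 lectins had the smallest fold changes of the 8 genes. Clec14a measured 254, 87.7 and 172 CPM in the depleted libraries and 79.6 to 310 CPM, with a median of 142, in the wild-type ones. This gave a log2 fold change of -0.02 ± 0.46 (SE, 95% interval -1.0 to 0.96, edgeR adjusted p = 1.00). Cd93 was the most abundant gene, at 1693, 3180 and 3838 CPM in the depleted and 2162 to 4469 CPM, with a median of 2750, in the wild-type libraries. The fold change on the log2 scale came to 0.01 ± 0.32 (SE, 95% interval -0.66 to 0.68, edgeR adjusted p = 1.00), so a 2-fold difference of the group means lies outside the interval. Among the other members of the family, Thbd measured 91.8 to 344 CPM in depleted and 78.2 to 231 CPM in wild-type libraries. Cd248 reached 209 CPM in wild-type replicate 2, the library high in Dcn, and was at 17.2 CPM or less in the others.

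**Figure D3:**
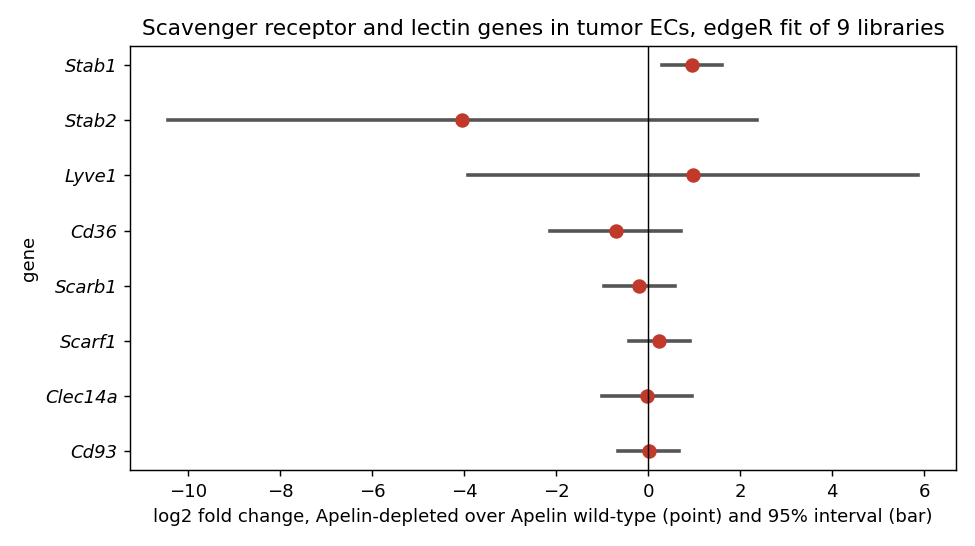
Log2 fold change of the 8 genes in tumor ECs, Apelin-depleted over Apelin wild-type, from the edgeR fit of 9 libraries (points), with 95% intervals (bars). The Stab1 interval (0.30 to 1.60) lies above 0, those of Stab2 and Lyve1 are the widest, and the others span 0.

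Of the 8 genes, 0 passed the thresholds in tumor ECs (edgeR, adjusted p under 0.05 and a log2 fold change beyond 1 in either direction), against 0.00765% of all tested genes, which is Apln alone. At an unadjusted p under 0.05 there was 1, Stab1, against 4.81% of all genes. Limma voom also called 0 of the 8, and DESeq2 called 0 of the 7 for which it gave a p, all but Stab2. DESeq2 called 0.764% of all genes. With 4 genes above 0 and 4 below, the median log2 fold change was -0.01, against -0.03 over all tested genes.

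The other genes of these pathways were taken from 7 lists of further scavenger receptors, group 14 lectins, ligands, adaptors, lipid handling, hyaluronan turnover and sinusoidal genes. Of 72 tested in tumor ECs, 0 were called by edgeR, DESeq2 or limma voom. At an unadjusted p under 0.05, 3 were higher (Olr1, Ager and Thbs1) and 2 lower (Angpt4 and Cemip), each named after its values were seen. At this cut 4.81% of all tested genes passed, so these counts are not read as a result about the lists. Thbs1, thrombospondin 1 and a ligand of CD36, ranged from 139 to 1246 CPM in depleted and from 138 to 333 CPM in wild-type libraries (log2 fold change 1.29 ± 0.46 SE, edgeR adjusted p = 0.957). Mmrn2, the ligand of CLEC14A and CD93, measured 525 to 910 CPM and 518 to 746 CPM, with a log2 fold change of 0.10 ± 0.26 (SE, edgeR adjusted p = 1.00).

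Levels of different genes were compared per length as TPM (counts per length of transcript, scaled to the library). In the Apelin wild-type libraries Cd93 stood first with a mean of 875 TPM, and its lowest library lay above every library of the next gene, Scarb1 (355 TPM). Lyve1 (262 TPM), Cd36 (223 TPM), Scarf1 (107 TPM), Stab1 (88.2 TPM), Clec14a (76.7 TPM) and Stab2 (10.2 TPM) followed, and each of these overlapped its neighbors in the order. The means of Lyve1 and Stab2 rest on wild-type replicate 3, at 1479 and 59.1 TPM. Their medians over the 6 libraries were 10.3 and 0.513 TPM, and by the median Lyve1 lay below Clec14a (63.1 TPM). In the depleted libraries the order was Cd93 (845 TPM), Lyve1 (463), Scarb1 (297), Stab1 (166), Cd36 (129), Scarf1 (125), Clec14a (73.9) and Stab2 (0.578). There only Clec14a lay apart from its neighbors on both sides. Stab1 stood at the sixth place in wild-type and the fourth in depleted libraries, both within the overlap of its neighbors.

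Over the 9 tumor libraries, the gene most like Stab1 in log2 CPM was Atp9a (Pearson r = 0.95), followed by Gas6, the ligand of TAM receptors (r = 0.92), and Slc39a8 (r = 0.92). Gas6 was also the gene most like Lyve1 (r = 0.96), before Tmem131 and Sesn1, and Stab1 and Lyve1 had r = 0.81 with each other. Gas6 measured 75.3, 98.2 and 45.8 CPM in the depleted libraries and 22.3, 1.76, 60.0, 14.5, 8.34 and 6.08 CPM in wild-type replicates 1 to 6. Its log2 fold change was 1.95 ± 0.74 (SE, edgeR adjusted p = 0.957), with wild-type replicate 3 again the highest of its group. Mrc1 was among the 3 genes most like Stab2 (r = 0.93), after Spcs3 and Sorcs2. For Cd36 the genes named are Rsl24d1 and Arsk (r = 0.97 and 0.93), and for Scarb1 they were Mmp15, Ap5s1 and Tlnrd1 (r = 0.96 to 0.95). Edem2, Oas2 and Cyp4f16 came nearest to Scarf1 (r = 0.97 to 0.96), 0610040F04Rik, Hoxa2 and Fbln5 to Clec14a (r = 0.97 to 0.89), and Fam120a, Vkorc1l1 and Dclk2 to Cd93 (r = 0.95 to 0.92). The 2 lectins ran in opposite directions (r = -0.62), and the 2 stabilins did not run together (r = 0.09). These are the highest values among all tested genes over 9 points that share libraries and depth, and are given as a description.

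In the sprouts, Stab1, the gene whose decrease under the STOP label chose this set, measured 23.3 and 30.2 CPM in STOP replicates 1 and 2 and 133 and 119 CPM in GO, from 344, 371, 2262 and 1476 counts. The log2 fold change was -2.24, a 4.73-fold lower level. The related Stab2 was near the limit of detection, at 12 and 16 counts in STOP and 10 and 13 in GO, or 0.813, 1.30, 0.590 and 1.05 CPM. Its STOP and GO levels overlapped, with a log2 fold change of 0.38. Lyve1 was also low, at 4 and 9 counts in STOP and 37 and 30 in GO. These correspond to 0.271, 0.733, 2.18 and 2.42 CPM and a log2 fold change of -2.21, which was -1.62 without STOP replicate 1 and -3.06 without STOP replicate 2. Of the stabilins, Stab1 was lower in both STOP libraries and Stab2 was at about 1 CPM in either group. Since this contrast chose Stab1 and Stab2 had few counts, no difference between the stabilins is read from these values.

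Among the lipid receptors, Scarf1 and Scarb1 differed. Scarf1 measured 13.8 and 16.6 CPM in STOP and 41.7 and 46.2 CPM in GO, a log2 fold change of -1.53. Scarb1 measured 129 and 105 CPM in STOP and 123 and 134 CPM in GO, with overlapping groups and a log2 fold change of -0.14. Cd36 was counted 1 and 2 times in the STOP and 3 and 2 times in the GO libraries, at or under the 3 counts that a count of 0 allows. It was thus counted in all 4 libraries but too rarely for a difference to be seen at this depth, and no fold change is given. Both lectins were lower under the STOP label. Clec14a measured 2.30 and 6.27 CPM in STOP and 16.9 and 18.2 CPM in GO, a log2 fold change of -2.04 that was -1.46 without STOP replicate 1 and -2.94 without STOP replicate 2. Cd93 measured 44.8 and 81.7 CPM in STOP and 265 and 228 CPM in GO, a log2 fold change of -1.96. For both genes the ratio of the 2 STOP libraries was wider than that of the 2 GO libraries.

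**Figure D4:**
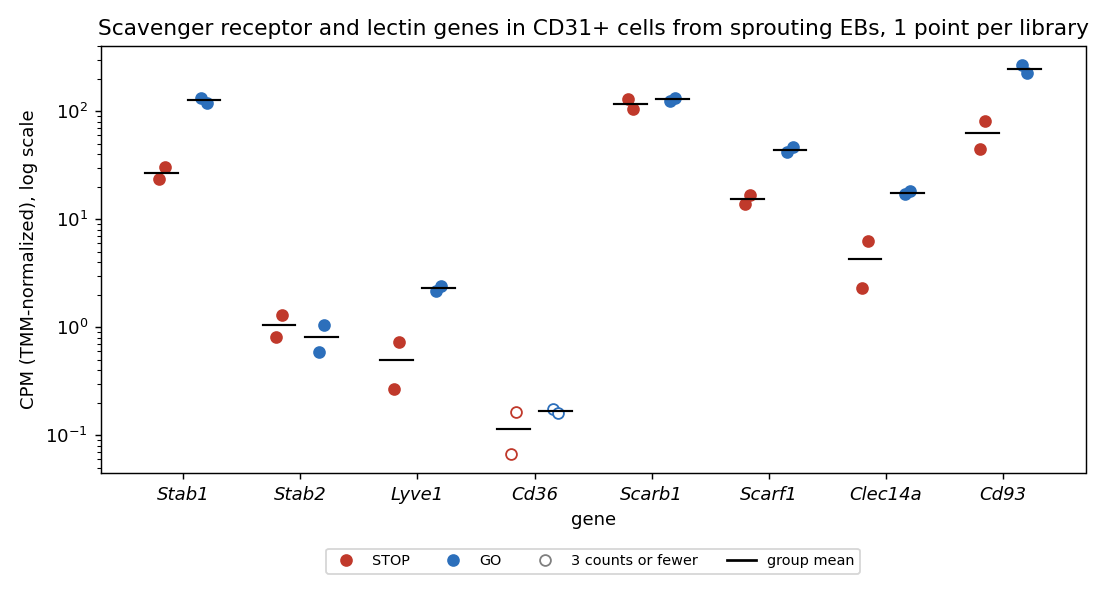
CPM of the 8 genes in CD31+ cells from sprouting EBs on a log scale, with 1 point per library (red, STOP, n = 2; blue, GO, n = 2), open points for 3 counts or fewer and a bar at each group mean. STOP lies below GO for Stab1, Lyve1, Scarf1, Clec14a and Cd93, and the groups overlap for Stab2 and Scarb1.

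Of the 7 genes tested in sprouts, 3 (Stab1, Scarf1 and Cd93) were past the thresholds, all lower in STOP, where 3.88% of all tested genes were called and 3.03% were called lower. In 5 of the 7 both STOP libraries lay below both GO libraries, as did those of 29.6% of all tested genes. The median log2 fold change was -1.96, against 0.01 over all tested genes. Since this contrast chose the genes, these counts carry no test.

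The sprout libraries differed in the same direction across endothelial genes. Of 17 pan-endothelial genes, 16 were called lower in STOP, against 3.03% of all tested genes. The other, Pecam1, was lower by less than 2-fold, and the median log2 fold change of the 17 was -1.95. Their summed level was 786 and 1049 CPM in STOP and 3128 and 2958 CPM in GO. Of 8 genes of pluripotent cells 1 was called higher in STOP, against 0.852% of all tested genes, and the fold changes of all 8 lay above 0. They summed to 5553 and 5419 CPM in STOP and 2077 and 3497 CPM in GO. Dppa5a, the called gene, measured 1438 and 1444 CPM against 461 and 723 CPM. Of 7 primitive blood genes 1 was called lower, Runx1, against 3.03% of all tested genes, and the fold changes of all 7 lay below 0. Runx1 measured 8.80 and 10.6 CPM in STOP against 37.1 and 25.1 CPM in GO. The part of the mix of cells in the differences of the 8 genes was not tested, but values per endothelial gene are given next.

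Against the mean of the 17 pan-endothelial genes in each library, the STOP less GO difference shrank to -0.40 log2 units for Stab1, -0.31 for Clec14a and -0.18 for Lyve1 and for Cd93. The STOP libraries of Stab1 (-0.32 and -0.27) still lay below those of GO (0.06 and 0.14). The difference of Scarf1 became 0.32, that of Scarb1 1.70 and that of Stab2 2.18. These values are log2 CPM with a prior count of 2, and the sign for Lyve1 depended on it, since on the log2(CPM + 1) scale its difference was 0.64. Cd93 came to 36.7 and 38.5 counts per 100 counts of Cdh5 (VE-cadherin) in the STOP libraries and 35.9 to 38.9 in GO, so the groups overlapped. Stab1 came to 14.2 to 19.1 per 100 in STOP and 18.8 to 19.6 in GO, with overlap. Scarb1 came to 49.2 to 106 per 100 in STOP and 18.1 to 21.1 in GO, a level that did not follow Cdh5.

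**Figure D5:**
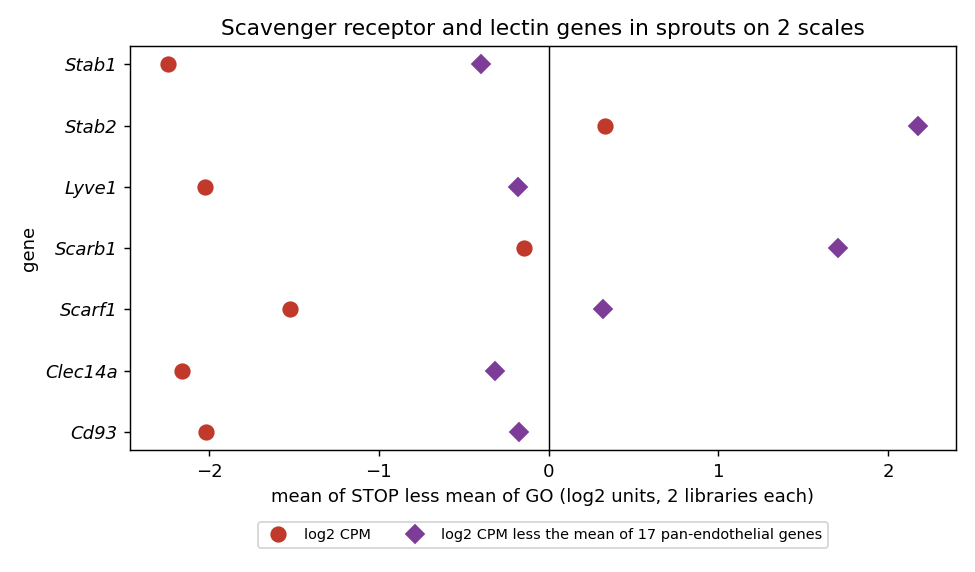
Mean of the STOP libraries less mean of the GO libraries for 7 genes, in log2 CPM (circles) and after the mean of 17 pan-endothelial genes is taken off in each library (diamonds); n = 2 libraries per group and no test. Stab1 moves from about -2.24 to -0.40, and Scarb1 and Stab2 lie above 1 on the second scale.

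In TPM, Scarb1 was the most abundant of the 8 genes in sprouts, with means of 67.2 in STOP and 82.3 in GO, and Cd93 followed with 13.9 and 59.3. Stab1 (23.6 TPM) and Scarf1 (22.9 TPM) overlapped in GO, and in STOP Scarf1 (6.99 TPM) stood above Stab1 (4.47 TPM) without overlap. Clec14a (1.31 and 6.00 TPM), Lyve1 (0.27 and 1.27), Stab2 (0.17 and 0.15) and Cd36 (0.05 and 0.09) followed in both groups, where in STOP Lyve1 and Stab2 overlapped. Cd93 thus led the order in tumor ECs and stood behind Scarb1 in sprouts. The 2 sets were made by different protocols and no test was run between them.

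Of the other pathway genes, 71 were tested in sprouts and 7 were called, all lower in STOP, where 3.03% of all tested genes were called lower. The pan-endothelial genes were called lower as well, 16 of 17, and their part in these calls was not tested. Mmrn2, the shared ligand of the lectins, measured 36.0 and 53.0 CPM in STOP and 124 and 133 CPM in GO (log2 fold change -1.53 ± 0.20 SE, edgeR adjusted p = 0.00909). Of the adaptors and partners, Rhoj fell by 2.01, and the Src family kinases Lyn and Fyn fell by 1.46 and 1.24 on the log2 scale (edgeR adjusted p = 0.00701, 0.0228 and 0.00999). Gpihbp1, which holds lipoprotein lipase on capillaries, fell by 2.24 at 1.13 ± 0.36 against 5.34 ± 0.21 CPM (SD, n = 2 each, edgeR adjusted p = 0.0262). The cholesterol exporter Abca1 fell by 1.40 and Gata4, a transcription factor of liver sinusoids, by 2.07 (edgeR adjusted p = 0.0368 and 0.0113). The other genes of their lists went both ways. Of the 16 lipid genes, 10 had a log2 fold change above 0 and 6 below. Of the 7 sinusoidal genes tested, 2 lay above 0 and 5 below. At an unadjusted p under 0.05 (edgeR), 2 sinusoidal genes were higher and 2 lower in STOP. Of the lymphatic list Flt4 fell by 1.71 (edgeR adjusted p = 0.00242), while Prox1 and Reln, at 1.60 and 6.49 CPM on average in STOP, were not called, Mmrn1 had at most 3 counts in a library and Ccl21a had none. Pdpn (podoplanin), also of that list, measured 58.0 and 56.9 CPM in STOP and 75.8 and 52.1 CPM in GO, with overlapping groups and a log2 fold change of -0.16. Thbd, at 10.7 and 18.3 CPM in STOP and 30.8 and 45.4 CPM in GO, was just outside the thresholds (edgeR adjusted p = 0.0524). No gene of the scavenger receptor and hyaluronan lists was called in sprouts. The count of 7 became 10 with DESeq2 and 0 with the replicate number as a block, where none of these 7 genes was called.

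Side by side, the log2 fold changes in tumor ECs and in sprouts were 0.95 and -2.24 for Stab1, -4.04 and 0.38 for Stab2, and 0.97 and -2.21 for Lyve1. They were -0.20 and -0.14 for Scarb1, 0.24 and -1.53 for Scarf1, -0.02 and -2.04 for Clec14a, and 0.01 and -1.96 for Cd93. The tumor values come from Apelin-depleted over wild-type libraries and the sprout values from STOP over GO libraries. Stab1 was the 1 gene whose groups did not overlap in either set, and the directions were opposite, a difference that was not tested.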

How the data were processed

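RNA-Seq was measured in 9 tumor EC libraries and 4 sprout libraries. For tumor ECs the authors deposited whole-number counts per gene without normalization, and the labels name Bowtie2 2.3.4.1, Trim Galore 0.5.0, Subread 1.6.2 and SAMtools 1.9 with no role. The study's methods instead give STAR as the aligner of these libraries, with counting by featureCounts of Subread, and which aligner made the counts could not be settled. For sprouts the authors aligned with STAR 2.5.0a and deposited HTSeq 0.6.1p1 counts, together with RSEM 1.2.25 expected counts, TPM and gene lengths, on mm10. The 5 HTSeq tally lines, 54.1% to 59.1% of reads and mostly multiple alignments, were left out. Reads shared by near-identical genes are therefore missing from these counts. The deposited TPM were used for sprout levels and rounded expected counts as an alternative, and the FPKM were not used. Tumor TPM were computed with the deposited lengths, which cover 97.1% to 97.7% of counts.

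Counts were tested in R 4.3.3 with edgeR 4.0.16 (TMM, filterByExpr with a minimum count of 10, robust quasi-likelihood test, Benjamini-Hochberg adjustment over all tested genes), in 1 fit per set. Genes were called at an adjusted p under 0.05 and a log2 fold change beyond 1. DESeq2 1.42.0, limma 3.58.1 voom with sample quality weights (tumor), other filters and size factors, the replicate number as a block and each library left out were the alternatives. Scaling to 17 pan-endothelial genes (with the prior count or on log2(CPM + 1)), leaving out Apelin wild-type replicates 2 and 3 together and a crossed block were added after the values were seen. The scripts were tested on simulated data.

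The 8 genes and the marker and pathway lists were chosen with earlier results of these data known. Named genes were the 8 genes, of each list those past the thresholds (at most 4 per list and fit) and the most abundant cell type markers, the 3 genes with the highest r to each of the 8 (log2 CPM, prior count 2), and Apln, Pecam1 and Eng. Other genes were named after their values were seen. One gene that this rule names for Cd36 is not reported here. Angpt4 stood in the ligand list without an established bond to one of the 8 receptors. Cemip2 is listed as Tmem2 in sprouts. Symbols were matched to GRCm38.p6 for positions, and promoters came from RefSeq. Figures were drawn with matplotlib 3.10.9 in Python 3.11.15.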

Additional observations from a re-analysis of the deposited data

Results flagged for a closer look

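In the 6 Apelin wild-type tumor libraries, 24 sets of values were examined for a library far from the other 5. Chance alone marks about 1 in 20 of such groups if the values are normally distributed. The CPM values are skewed and the sets share libraries, so this rate does not hold here and the number marked is not read against it. Replicate 3 stood apart for Stab2 (213 CPM, next highest 3.57), Lyve1 (1712 CPM, next 90.1) and Cd93 (4469 CPM, next 2998). The same library stood apart in the summed sinusoidal genes (688 CPM), lymphatic genes (1079 CPM) and platelet genes (78.2 CPM). Replicate 2 stood apart in mural and fibroblast genes (4142 CPM) and in further scavenger receptors (1386 CPM), of which Lrp1 gave 940 CPM. Replicate 4 stood apart in macrophage genes (708 CPM) and replicate 1 in adipocyte genes (20.1 CPM, all of it Cfd).

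The Stab1 log2 fold change was 0.95 in tumor ECs, with all depleted libraries above all wild-type ones, and -2.24 in sprouts, with both STOP libraries below both GO ones. The difference between the sets was not tested, and the sprout contrast is the one by which Stab1 was chosen.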

How the results depend on the processing

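None of the 8 genes was called in tumor ECs under any of the 16 alternatives with a test (DESeq2 gave no p for Stab2), nor was any other pathway gene. Over all genes the tumor calls rose from 1 to 113 with DESeq2 (94 lower), 16 without a filter, 2 with limma voom and 1 to 2 with a library left out. Of 235 settings of the 8 genes' fold changes in both sets, 202 gave an adjusted p, and 174 of these kept direction and call. Of the 33 without an adjusted p, 24 kept direction. In all 27 reversed direction. In tumor ECs, with 1 library left out, Stab2 ranged from -6.39 to 0.49, Scarb1 from -0.44 to 0.043 (above 0 without depleted replicate 1), Clec14a from -0.42 to 0.29 and Cd93 from -0.24 to 0.28. Clec14a gave 0.091 and Cd93 -0.0056 with limma voom. Without a change of direction, Lyve1 gave 4.04, Stab2 -1.11 and Cd36 -0.20 with limma voom. The replicate number as a block gave 2.81, -2.31 and -1.16 for these genes. Without Apelin wild-type replicates 2 and 3, Stab2 gave 0.49, Cd36 0.48 and Clec14a 0.070. Against the pan-endothelial genes Scarf1 gave -0.054 and Cd93 -0.39 in tumor ECs, and Scarb1 gave 1.70 and Scarf1 0.32 in sprouts. On the log2(CPM + 1) scale, an alternative chosen after seeing the data, these were -0.053, -0.39, 1.65 and 0.32, and Lyve1 gave 0.64 in sprouts.

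In sprouts the calls over all genes rose from 565 to 854 without a filter and ranged from 148 (without STOP replicate 1) to 887 (without GO replicate 2) with a library left out. Calls among the 8 genes were 5 without a filter and 2 to 4 with a library left out, and other pathway calls ranged from 3 to 14. Stab2 ranged from -0.000385 (without GO replicate 1) to 0.83, and the call of Cd93 was lost without either GO library. The causes were not tested.

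With the replicate number as a block (replicate block), tumor ECs gave 2 calls and a Cd93 log2 fold change of -0.14. Sprouts gave 44 calls over all genes, 1 among the 8 (Stab1) and 0 among other pathway genes. Since the sprout contrast chose the 8 genes, their sprout calls under any setting carry no test. Same-numbered libraries did not deviate together (r = -0.06, 0.05 and -0.11 in tumor ECs, -0.39 in sprouts). With 2 libraries per sprout group both replicates give the same r by construction, so this is a single value. Whether same-numbered libraries share more than a number could not be settled from these values. A block with crossed numbers in sprouts gave 1235, 5 and 17 calls. Depth limits Stab2 and Cd36 in sprouts and Stab2 in most tumor libraries.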

Other observations

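The mural and fibroblast genes split the sprout libraries across the groups, with summed levels of 403 and 2207 CPM in STOP replicates 1 and 2 and 2466 and 540 CPM in GO. Col1a1, the fibrillar collagen chain, ranged from 270 to 1588 CPM over these 4 libraries. Of the 5 epithelial genes 0 were called in sprouts by edgeR, 2 at an unadjusted p under 0.05. The keratins Krt8, Krt18 and Krt19 lay below 0 with overlapping groups, and Cdh1 and Epcam lay above 0. Krt18 measured 91.8 and 92.5 CPM in STOP and 148 and 85.8 CPM in GO. Cdh1, the epithelial cadherin that pluripotent cells also make, measured 381 and 499 CPM in STOP and 242 and 282 CPM in GO, with a log2 fold change of 0.75 ± 0.17 (SE, edgeR adjusted p = 0.0471), under the fold threshold.

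RSEM expected counts in the sprout libraries came to 0.95 to 0.98 times the HTSeq counts for Stab1, 0.98 to 0.99 times for Scarb1 and 1.02 to 1.10 times for Cd93. For Stab2, with 10 to 16 counts per library, the ratio ran from 0.85 to 1.2.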
